A study of Mus musculus with 24 samples.

Results

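The 12 libraries described here are the D2 and the 87 libraries of a mouse series with 24 libraries in all. They were chosen because their 4 groups give the difference between 2 strains in the effect of a Lama2-CMD mutation: the change in D2 CMD over D2 WT muscle minus the change in 87 CMD over 87 WT muscle. Each library is bulk RNA-seq of a left quadriceps taken at 25 weeks. The D2 CMD group holds libraries 22, 23 and 24, from DBA/2J mice with Lama2-CMD, and the D2 WT group holds libraries 19, 20 and 21, from healthy DBA/2J mice. The 87 CMD group holds libraries 16, 17 and 18, from Lama2-CMD mice of the strain labelled CMD-87, and the 87 WT group holds libraries 13, 14 and 15, from healthy mice of the same strain, which the series text places on the BXD-87 background. The Lama2 allele is not given in the sources used here, nor is it stated how the mutation was placed on each background. BXD strains are recombinant inbred strains bred from C57BL/6J and DBA/2J mice, so that 87 carries DBA/2J alleles at a part of its genome.

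Lama2 encodes the alpha chain of the main laminins in the basement membrane around muscle fibres, and its loss causes a congenital muscular dystrophy (CMD) with fibre damage, inflammation and fibrosis. Muscle fibres differ in how they make ATP: slow fibres rest on mitochondrial respiration and fat oxidation and fast fibres more on glycolysis. Respiratory chain genes in muscle are driven by the coactivator PGC-1alpha (Ppargc1a) with the nuclear receptors of the estrogen-related receptor family (Esrra, Esrrb, Esrrg), while dystrophic muscle of the DBA/2J strain is known for marked fibrosis.

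Depth was similar throughout, with 38415800 to 51715975 total exon reads per library. Levels are given as CPM, reads scaled to a common library size with TMM factors, always in the library order above. The muscle fibre markers Ckm, Acta1, Myh4, Ttn and Mb were all detected, and their summed level was 62292 to 107740 CPM in D2 CMD, 117430 to 125690 in D2 WT, 72015 to 111440 in 87 CMD and 130550 to 145110 in 87 WT. The sum was therefore lower in CMD than in WT in both strains, without overlap. In bulk tissue, fewer cells of a type and less RNA per cell cannot be told apart. Reads from 4 Y-linked genes went against the sex label in 4 of the 12 libraries: 4927 and 4858 such reads came from D2 CMD libraries 22 and 24, whose label is female, and 1 and 0 from D2 WT libraries 19 and 21, whose label is male. By these reads the D2 CMD group held 2 males and 1 female and the D2 WT group held 3 females, so in D2 sex and genotype are only partly separable. In 87, labels and reads gave the same sex for each library. In 87 WT, 13 was male and 14 and 15 were female. In 87 CMD, 16 was female and 17 and 18 were male. Sex was thus unbalanced between the 87 groups too, and library 16 was the only female of 87 CMD. Read in library order, the Y-linked reads of 22, 23 and 24 match the sex labels of 19, 20 and 21, and those of 19, 20 and 21 match the labels of 22, 23 and 24, so that an exchange of the D2 CMD and D2 WT labels would remove all 4 conflicts and turn round every D2 direction given here. The group labels were kept as deposited. Mymk, which encodes a protein of myoblast fusion and was chosen for this check after its values were seen, had 4.26, 31.8 and 15.4 CPM in D2 CMD, against 0.0222, 0.145 and 0.333 in D2 WT. It had 0.891, 7.36 and 5.44 CPM in 87 CMD, against 0, 0.05401 and 0.292 in 87 WT. For Mymk, every library labelled CMD was above every library labelled WT in both strains, and the fibre marker sum above was likewise lower in the libraries labelled CMD of both strains. The summed level of all 17 regeneration and fusion genes overlapped in both strains. It was 308 to 1099 CPM in D2 CMD and 311 to 496 in D2 WT. In 87 CMD it was 443 to 679 CPM, against 289 to 703 in 87 WT. Whether the D2 labels were exchanged was not tested. The 87 CMD library 16 stood apart from 17 and 18 in stress and atrophy genes, and the D2 CMD library 23 stood apart from 22 and 24 in leukocyte genes, as given below. Lama2 itself, which the labels do not say to be deleted, had 28.8, 23.3 and 29.04 CPM in D2 CMD, against 42.5, 23.8 and 38.6 in D2 WT. It had 12.9, 19.5 and 16.4 CPM in 87 CMD, against 35.8, 27.5 and 27.4 in 87 WT. The D2 groups overlapped and the 87 groups did not. Its level fell in 87 (log2 −0.89, edgeR adjusted p = 0.0094), missed the threshold in D2 (log2 −0.37, adjusted p = 0.24), and the 2 effects did not differ past the threshold (0.52 ± 0.32 standard error, adjusted p = 0.32). With sex as labelled in the model that difference passed (0.93, adjusted p = 0.036).

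The effect of CMD on gene expression differed between the strains for 1169 of 14789 genes tested (7.9%), at an adjusted p of 0.05 by edgeR's quasi-likelihood test, 447 with a higher effect in D2 (3.02%) and 722 with a lower effect in D2 (4.88%). CMD against WT alone changed 2986 genes in D2 (20.2%) and 3083 in 87 (20.8%). Of these, 778 changed in the same direction in both strains and 184 in opposite directions. All 184 passed the test of the difference, against 11 of the 778. These counts were largely set in advance by how the genes were picked. Effects called in opposite directions add up in the difference, while effects in the same direction partly cancel. The counts are therefore no separate evidence that the effects differ. The median difference over all genes tested was 0.06 on the log2 scale. The shares of 3.02% higher and 4.88% lower are the background for every list count of differences below. A list with a single call is not set apart from all genes by that count.

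The 722 genes with a lower effect in D2 fell mainly into 3 kinds. Of them, 339 rose in 87 CMD and were not called in D2, 180 fell in D2 CMD and were not called in 87, and 174 did both. Of the 447 genes with a higher effect in D2, 251 rose in D2 CMD alone, 136 fell in 87 CMD alone and 10 did both. Set side by side, 619 of the 722 genes differed between D2 CMD and 87 CMD, all but 1 of them lower in D2 CMD, and 153 differed between D2 WT and 87 WT. For 85 of the 722 genes D2 CMD was below 87 CMD while D2 WT was above 87 WT. The background for these shares was 34.3% of all genes tested between the CMD groups and 6.86% between the WT groups.

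**Figure D1:**
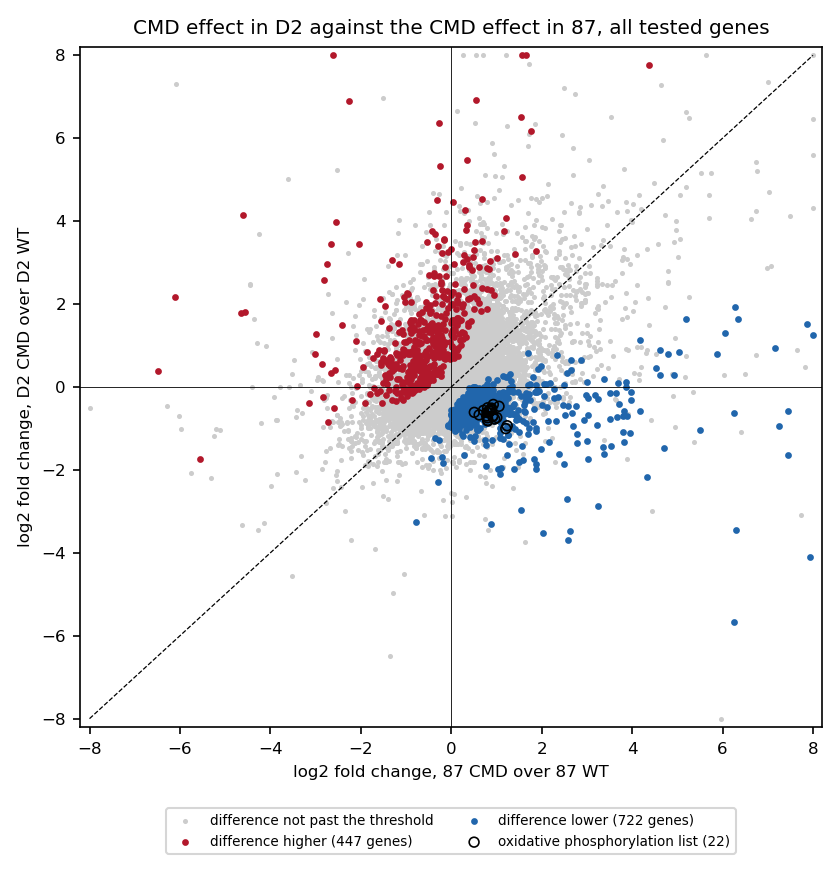
Each point is a tested gene, with the log2 change of 87 CMD over 87 WT on the x axis and of D2 CMD over D2 WT on the y axis, and the dashed line marks equal change; 14 genes beyond 8 are drawn at the edge. The 22 oxidative phosphorylation genes (rings) form a tight group to the right of 0 and below 0, and the 722 genes with a lower effect in D2 lie on their side of the line.

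The count of 1169 depended on single libraries. It ran from 616 without D2 WT library 21 to 1885 without 87 CMD library 18, and it also moved by more than 1.5 times without 87 WT library 13 (622), D2 WT library 20 (756) and D2 CMD library 24 (651). Without library 16 it was 889, of which 758 were among the 1169. In all, 743 of the 1169 genes were also called, with the same sign, both without library 16 and with sex coded from the Y-linked reads: 551 with a lower and 192 with a higher effect in D2.

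Genes of oxidative phosphorylation had a lower CMD effect in D2 than in 87, and those called within a strain fell in D2 and rose in 87. All 22 listed genes had a lower CMD effect in D2 than in 87, where 4.88% of all genes did (median difference −1.46, against 0.06 for all genes). In D2, 20 of the 22 fell in CMD (median −0.64, where 9.03% of all genes fell), and in 87, 21 of the 22 rose (median 0.87, where 11.5% of all genes rose). The D2 count was less stable than the 87 count: it was 13 with sex from Y-linked reads (median −0.6), 9 without library 23 or 24, 10 without library 21 and 8 without libraries 16 and 23 (median −0.56), while the 87 count stayed between 20 and 22 without any 1 library. The summed level of the 22 genes was 11298, 7475 and 7590 CPM in D2 CMD, against 12940, 13580 and 16733 CPM in D2 WT. In 87 CMD it was 18129, 16500 and 16144 CPM, against 8322, 10498 and 10254 CPM in 87 WT. Neither pair of groups overlapped, and D2 CMD was the lower of its pair while 87 CMD was the higher. Of the 22 genes, 11 were already higher in D2 WT than in 87 WT (3.12% of all genes were higher there and 3.73% lower), and all 22 were lower in D2 CMD than in 87 CMD (17% of all genes were). The count of 11 was 0 without library 21, 1 without library 13 and 6 without library 14, 15 or 20. The count of 22 genes with a lower effect stayed between 21 and 22 under every alternative run, including without library 16 (22) and with sex from Y-linked reads (22).

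Sdhb, the iron-sulfur subunit of complex II, showed the largest difference of the list. It had 271, 217 and 151 CPM in D2 CMD, against 388, 371 and 525 in D2 WT, and 655, 486 and 557 CPM in 87 CMD, against 193, 283 and 260.4 in 87 WT. Each D2 CMD library was below each D2 WT library and each 87 CMD library above each 87 WT library, and the difference was −2.21 ± 0.33 (adjusted p = 0.00097). Cox5b, a nuclear subunit of cytochrome c oxidase, had 239.6, 203 and 176 CPM in D2 CMD, against 275, 264 and 345 in D2 WT. It had 475, 418 and 481 CPM in 87 CMD, against 191, 234 and 225 in 87 WT. The groups were separated in the same way and the difference was −1.59 ± 0.2 (adjusted p = 0.00074). The complexes were then counted in full, from lists made after these values were seen. A lower effect in D2 was found for 38 of 38 nuclear subunits of complex I (median −1.17), 4 of 4 of complex II (−1.42), 9 of 9 of complex III (−1.45), 12 of 16 tested of complex IV (−1.27) and 17 of 18 of complex V (−1.38). The 4 complex IV genes that did not pass were Cox6a1, Cox8a, Cox4i2 and Cox6b2, isoforms best known from tissues other than heart and muscle. Of the 13 subunits encoded by the mitochondrial genome itself, 5 passed (mt-Co1, mt-Co2, mt-Co3, mt-Atp6 and mt-Cytb; median of the 13, −0.95). That last count ranged over the single-library fits from 3, without 87 WT library 13, D2 WT library 21 or D2 CMD library 23 or 24, to 9, without D2 CMD library 22. Proteins of the mitochondrial ribosome passed for 48 of 78 (median −0.68).

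**Figure D2:**
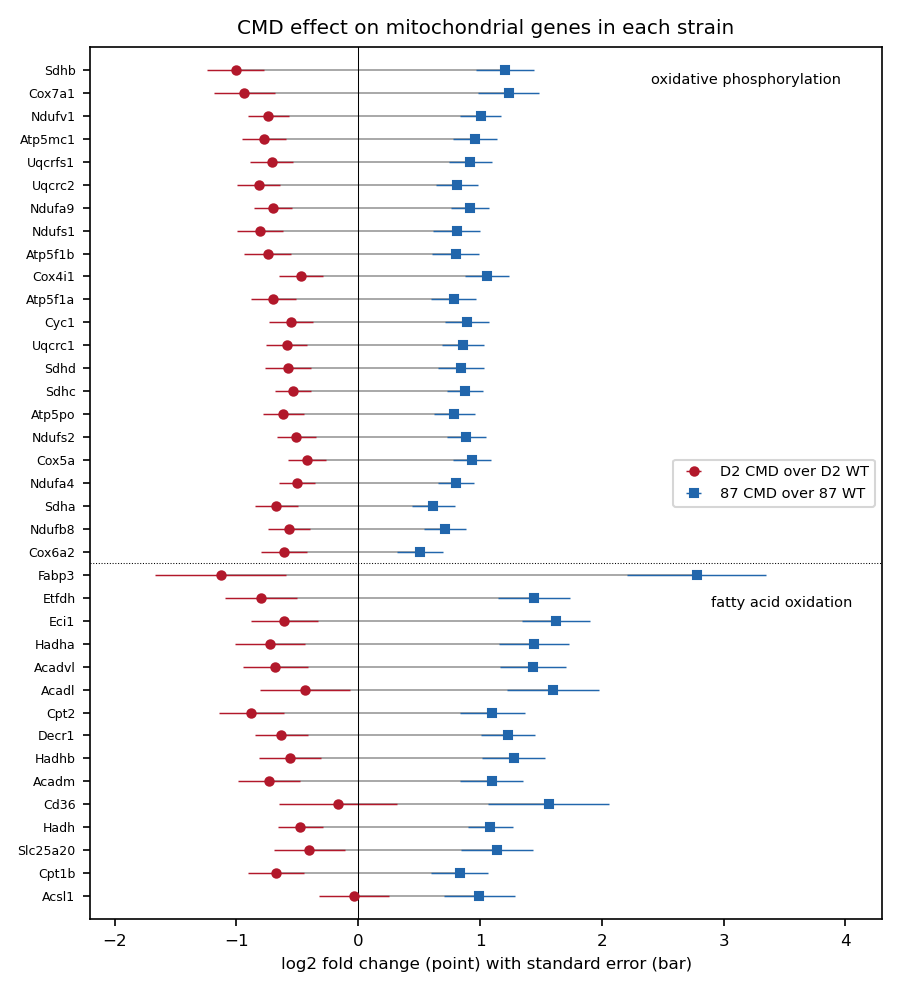
For each tested gene of the oxidative phosphorylation and fatty acid oxidation lists, the log2 change of D2 CMD over D2 WT (circle) and of 87 CMD over 87 WT (square) is drawn with its standard error. All circles of the oxidative phosphorylation genes lie left of 0 and all squares right of 0, with Sdhb at −1.0 in D2 and 1.21 in 87 at the top.

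The start of 2 of these genes is shown because both carry letters of a factor that is known to act at respiratory genes. Sequences are RefSeq promoters of build GRCm38.p6, 250 bases before to 50 bases after the start site, read 5′ to 3′ along the gene, with matches in capitals. Sdhd, the membrane anchor subunit of complex II (9:50603800-50604099, minus strand), holds a core site of the factor NRF1 and, near its end, an element of the estrogen-related receptors on the opposite strand. Etfdh, which passes electrons from fatty acid oxidation into the respiratory chain (3:79628718-79629017, minus strand), holds the NRF1 letters on both strands, overlapping.
Sdhd: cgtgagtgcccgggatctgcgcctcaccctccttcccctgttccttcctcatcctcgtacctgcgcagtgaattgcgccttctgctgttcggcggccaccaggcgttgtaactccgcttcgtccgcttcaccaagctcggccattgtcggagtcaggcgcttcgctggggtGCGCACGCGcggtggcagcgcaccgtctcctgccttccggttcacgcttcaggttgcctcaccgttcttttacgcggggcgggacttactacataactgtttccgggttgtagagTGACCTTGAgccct
Etfdh: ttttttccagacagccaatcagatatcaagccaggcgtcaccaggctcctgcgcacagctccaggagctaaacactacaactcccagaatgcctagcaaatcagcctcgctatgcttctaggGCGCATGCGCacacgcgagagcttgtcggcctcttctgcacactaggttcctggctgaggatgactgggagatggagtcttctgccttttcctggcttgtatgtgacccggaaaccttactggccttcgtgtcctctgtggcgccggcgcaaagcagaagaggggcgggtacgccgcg
The letters searched on both strands were GCGCANGCG for the NRF1 core and TNAAGGTCA for the estrogen-related receptor element. Of 37 genes in the oxidative phosphorylation and fatty acid lists, 24 had a promoter in the table, and 5 of these held the NRF1 letters. The letters were in 105 of 570 promoters of genes with a lower effect in D2 (18.4%) and in 32 of 343 with a higher effect (9.33%), against 1552 of 11435 over all tested genes (13.6%). The estrogen-related receptor letters were in 5 of the 570 (0.877%) and 3 of the 343 (0.875%), against 104 of all 11435 (0.909%). These shares are a description of the letters and were not tested.

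Some regulators of mitochondrial genes also had a lower CMD effect in D2, and others were not called. Their part in the oxidative phosphorylation values was not tested. Of 11 regulators, in a list made after values were seen, 5 had a lower effect in D2 (4.88% of all genes did): Ppargc1a, Perm1, Esrra, Esrrb and Esrrg. Ppargc1a had 19.5, 9.64 and 12.9 CPM in D2 CMD, against 27.3, 27.1 and 31.1 in D2 WT, and 46.9, 44.8 and 60.6 CPM in 87 CMD, against 19.9, 16.01 and 21.1 in 87 WT. It fell in D2 (log2 −1.03, adjusted p = 0.013) and rose in 87 (log2 1.42, adjusted p = 0.0015), with no overlap in either strain. Perm1, a muscle protein induced by PGC-1alpha, also fell in D2 (−1.43) and rose in 87 (1.56). Esrrb had 2.402, 4.94 and 6.23 CPM in D2 CMD, against 11.3, 7.095 and 15.6 in D2 WT, and 12.3, 7.02 and 9.93 CPM in 87 CMD, against 0.643, 1.03 and 0.417 in 87 WT. The low group was 87 WT, the D2 groups did not overlap but missed the threshold (−1.32, adjusted p = 0.15), and the difference was −5.15 ± 1.0 (adjusted p = 0.0033). Nrf1 and Tfam, which act on the nuclear and the mitochondrial respiratory genes, had differences of −0.14 and −0.40 that did not pass.

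Fat oxidation and the citric acid cycle also had a lower CMD effect in D2. Of 15 fatty acid oxidation genes, 13 had a lower effect in D2 (median −1.86), where 4.88% of all genes did. In D2 CMD 4 of the 15 fell (9.03% of all genes fell), and in 87 CMD all 15 rose (11.5% of all genes rose). The median change was −0.63 in D2 and 1.28 in 87. Without library 16 the count with a lower effect was 11, that of falls in D2 8 and that of rises in 87 10. The falls in D2 numbered 0 with sex from Y-linked reads and without library 21 or 24, 1 without library 19 or 20 and 2 without library 23. The 14 tested citric acid cycle genes, listed after values were seen, all passed (median −1.34). All 14 fell in D2 CMD, while 10 rose in 87 CMD, against the same shares of 9.03% and 11.5% over all genes. The D2 count was 8 with sex from Y-linked reads, 5 without library 21 or 23, 8 without library 24 and 7 without libraries 16 and 23. Fabp3, the fatty acid binding protein of heart and muscle, had 182, 337 and 239.5 CPM in D2 CMD, against 486, 565 and 608 in D2 WT. It had 2137, 584 and 1318 CPM in 87 CMD, against 176, 190.3 and 222 in 87 WT. Library 16 was the highest, and all 3 of the 87 CMD libraries lay above 87 WT (difference −3.91 ± 0.78, adjusted p = 0.0042).

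The 10 genes with the most negative difference under the naming rule were Bdh1, Zdhhc23, Ldhb, Esrrb, Slc6a17, Plin5, Dusp18, Smtnl1, Acss1 and Idh2, of which Bdh1, Ldhb, Plin5, Acss1 and Idh2 encode proteins of energy metabolism. Bdh1, the mitochondrial enzyme that interconverts the ketone bodies, had 7.77, 2.69 and 16.7 CPM in D2 CMD, against 26.3, 10.8 and 47.7 in D2 WT. In 87 CMD it had 88.4, 35.4 and 101 CPM, against 0.214, 0.918 and 0.208 in 87 WT. 87 WT was the low group, the D2 groups overlapped, and the difference was −9.08 ± 1.64 (adjusted p = 0.0021). Ldhb, the heart-type lactate dehydrogenase subunit, had 29.4, 82.6 and 50.4 CPM in D2 CMD, against 236, 119 and 377 in D2 WT. It had 403, 145 and 333 CPM in 87 CMD, against 8.27, 26.3 and 9.58 in 87 WT. Neither pair overlapped, the D2 change missed the threshold (−2.17, adjusted p = 0.076), and the difference was −6.49 ± 1.26 (adjusted p = 0.0034). Idh2, the mitochondrial NADP-dependent isocitrate dehydrogenase, had 66.95, 57.7 and 62.8 CPM in D2 CMD, against 241, 104 and 329.9 in D2 WT. It had 916, 225 and 416 CPM in 87 CMD, against 77.96, 127 and 73.7 in 87 WT. It fell in D2 (−1.85, adjusted p = 0.025) and rose in 87 (2.48, adjusted p = 0.0048). Plin5, a lipid droplet protein that meets mitochondria, had 11.2, 14.7 and 7.08 CPM in D2 CMD, against 27.7, 27.7 and 32.3 in D2 WT. It had 155, 18.6 and 47.6 CPM in 87 CMD, against 4.96, 5.81 and 8.35 in 87 WT, with library 16 more than 3 times the next (−4.94 ± 1.12, adjusted p = 0.011). Acss1, which activates acetate in mitochondria, likewise had its highest level in library 16, 432, 41.4 and 79.6 CPM in 87 CMD against 14.9, 27.5 and 25.9 in 87 WT. In D2 it had 13.2, 16.4 and 8.598 CPM in CMD, against 46.5, 39.2 and 41.2 in WT, without overlap. Its difference was −4.75 with library 16 and −3.18 without it. All 10 genes stayed past the threshold under all 22 alternatives run for each. Some of these could not fail, because the naming rule required a call without library 16 and with sex from Y-linked reads. The genes were also picked for large differences, so the log2 change of at least 1 was met in advance.

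Of the genes that fell in D2 and rose in 87 with the smallest p, Phyh, Ckmt2, Cox5b and Bola3 are all mitochondrial or peroxisomal. Ckmt2, the sarcomeric mitochondrial creatine kinase, had 616, 256 and 430.5 CPM in D2 CMD, against 1002, 937 and 1722 in D2 WT. It had 1324, 1355 and 1592 CPM in 87 CMD, against 284, 395 and 394 in 87 WT. The groups did not overlap in either strain, and the effects were −1.49 in D2 and 1.99 in 87 (difference −3.48 ± 0.46, adjusted p = 0.00074). Phyh, the peroxisomal enzyme of phytanic acid oxidation, had 143, 89.3 and 87.3 CPM in D2 CMD, against 193, 181 and 265 in D2 WT. It had 262, 271 and 294 CPM in 87 CMD, against 111, 122 and 103 in 87 WT. The 87 CMD libraries differed little among themselves, library 16 included, and the difference was −2.3 ± 0.28 (adjusted p = 0.0007). Bola3, needed to load iron-sulfur clusters into mitochondrial enzymes, differed by −1.13 ± 0.15 (adjusted p = 0.00074).

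**Figure D3:**
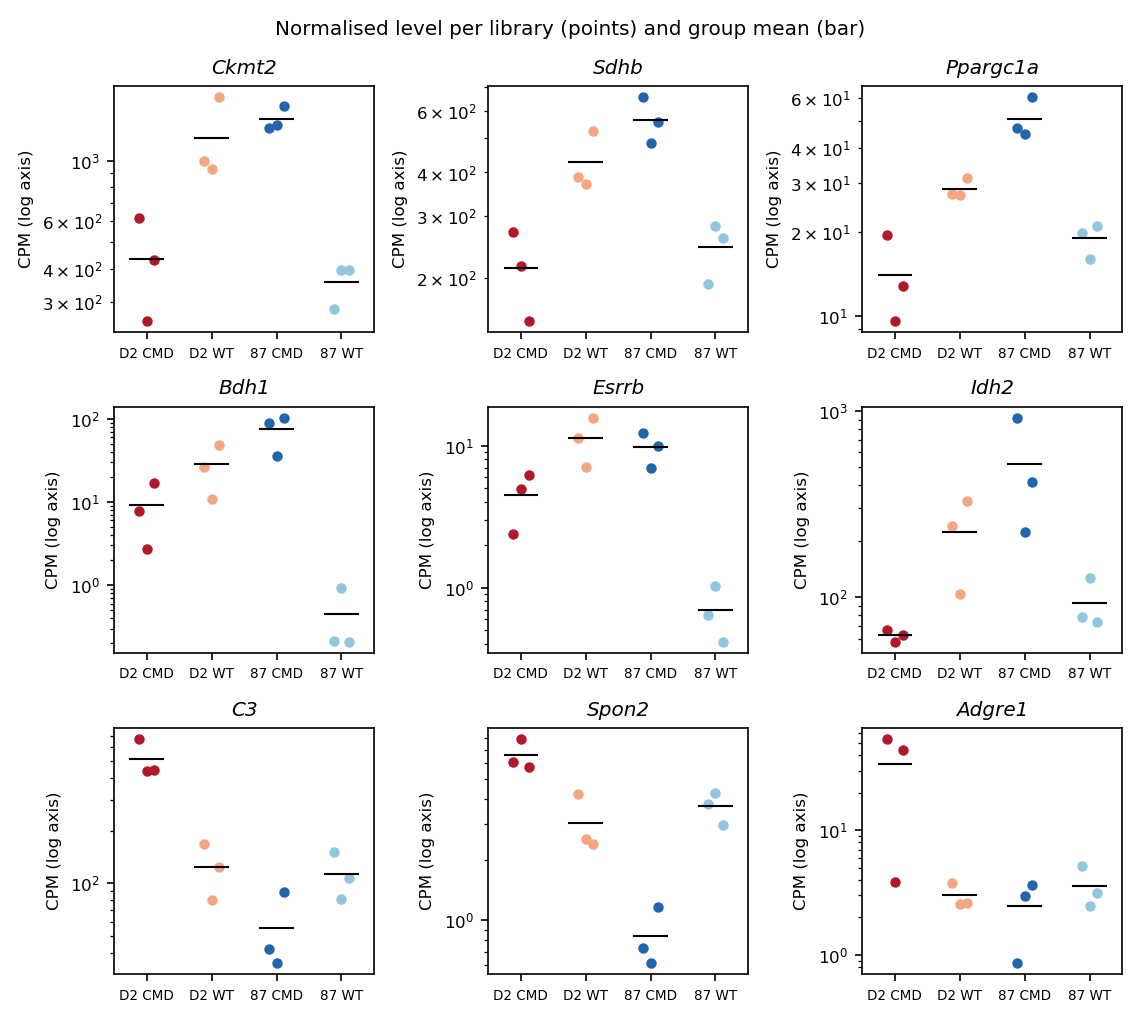
Each panel gives the CPM (log axis) of a gene in the 3 libraries of D2 CMD, D2 WT, 87 CMD and 87 WT, with the group mean as a bar. The upper 2 rows show genes with a lower CMD effect in D2, such as Ppargc1a with 9.64 to 19.5 CPM in D2 CMD and 44.8 to 60.6 CPM in 87 CMD, and the bottom row shows C3, Spon2 and Adgre1, with a higher effect in D2.

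Slow fibre genes were higher in D2 WT than in 87 WT muscle, and their CMD effects were mostly not called as different. Of 13 slow fibre genes, 11 were higher in D2 WT than in 87 WT (3.12% of all genes were). None was called in D2 CMD (20.2% of all genes were) and 6 rose in 87 CMD (11.5% rose). The count of 11 was 6 without library 13 and 7 without library 15. The median difference in effect was −5.62, and Csrp3 and Myoz2 passed with a lower effect in D2 (4.88% of all genes did). Neither passed without library 16, and the count was also 0 without library 13 or 15, 1 without library 21, 22 or 24 and 4 without library 20 or 23. Csrp3, a Z-disc protein of slow and stressed fibres, had 58.7, 160.2 and 201 CPM in D2 CMD, against 51.5, 91.4 and 34.2 in D2 WT. It had 880.4, 119 and 153 CPM in 87 CMD, against 0.0953, 1.94 and 1.08 in 87 WT. Its difference of −7.29 ± 1.87 (adjusted p = 0.022) was −5.82 without library 16 (adjusted p = 0.055), and the call was also lost without 87 WT library 13 (0.062) or 15 (0.052). Myh7, the slow myosin heavy chain, varied within D2, with 11.8, 285 and 128 CPM in D2 CMD and 150.1, 0.917 and 923 in D2 WT. In 87 it had 0.184, 2.02 and 7.82 CPM in CMD and 0.0238, 0.216 and 0.0208 in WT, and its difference did not pass (adjusted p = 0.18). The summed slow fibre level was 342 to 1961 CPM in D2 CMD, 237 to 2997 in D2 WT, 429.8 to 1526 in 87 CMD and 56.9 to 68.5 in 87 WT, so that 87 WT alone stood apart and the part of fibre mix in the mitochondrial result was not tested. The slow fibre sums of D2 CMD and D2 WT overlapped, and in 87 CMD the slow fibre sum, like the oxidative phosphorylation sum, lay above 87 WT in all 3 libraries. Among fast fibre genes none of 13 passed by edgeR, against 4 at an unadjusted p under 0.05 and 3 by DESeq2. Of 17 glycolysis and glycogen genes, Hk2 (−0.98) and Gys1 (−1.12) had a lower effect in D2. Gys1 lost its call without libraries 13 (adjusted p = 0.060), 16 (0.052) or 21 (0.063). In D2 CMD 8 of the 17 fell (median −0.69, where 9.03% of all genes fell). In 87 CMD 4 fell (median −0.53, where 9.38% fell). The D2 count was 3 without library 20, 23 or 24 and 15 without library 22. Their summed level was 22739 to 41625 CPM in D2 CMD, against 45474 to 56786 in D2 WT. In 87 it was 34224 to 47896 CPM in CMD, against 52304 to 62492 in WT, so neither pair overlapped.

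Matrix genes went the other way, higher in D2 CMD than in 87 CMD. Of 25 fibrillar matrix genes, 23 were higher in D2 CMD than in 87 CMD (17.3% of all genes were) and none was called between the WT groups. The count of 23 was 16 without library 16 and 15 without library 24. In D2, 7 rose in CMD (11.2% of all genes rose), and in 87, 6 fell and 1 rose (9.38% of all genes fell). Without library 16 these counts were 13 in D2 and, in 87, 2 fallen and 2 risen, and the 87 median was −0.4 in place of −0.77. The D2 count was 4 without library 20, and the count of falls in 87 was 3 without library 14, 12 without library 18 and 13 with sex from Y-linked reads. The effects themselves differed for 5 of 25, all higher in D2, where 3.02% of all genes were: Mmp14, Mmp2, Loxl1, Col6a3 and Col6a1 (median of the 25, 1.62). Of these, Mmp14 and Mmp2 are matrix metalloproteases, Loxl1 crosslinks elastin and the other two encode collagen VI chains. Col6a3 had 96.7, 99.6 and 135 CPM in D2 CMD, against 71.6, 49.5 and 58.4 in D2 WT. It had 7.34, 45.9 and 48.9 CPM in 87 CMD, against 79.6, 64.8 and 67.2 in 87 WT. Library 16 was far below the others, the groups did not overlap in either strain, and the difference was 1.94 ± 0.58 (adjusted p = 0.045). Without library 16 it was 1.43 (adjusted p = 0.012), and the call was lost in turn without libraries 13, 14, 15, 19, 20, 21, 23 or 24 (adjusted p = 0.058 to 0.11). Col1a1, the main fibrillar collagen chain, had 302, 242 and 573 CPM in D2 CMD, against 157, 61.5 and 91.5 in D2 WT, and 8.703, 81.3 and 125 CPM in 87 CMD, against 137, 116 and 102 in 87 WT. It rose in D2 (1.85, adjusted p = 0.031) and its difference missed the threshold (2.57 ± 0.81, adjusted p = 0.057). The matrix count ran from 2, without libraries 13, 15, 20, 21, 23 or 24, to 18 without library 18, and was 6 without library 16 and 12 with sex from Y-linked reads. Of 14 markers of fibro-adipogenic progenitors, cells that make much of this matrix, 1 had a higher effect in D2 (Smoc2, 1.35 ± 0.28, adjusted p = 0.0052), and 5 without library 18. Their summed level was 1188 to 1520 CPM in D2 CMD, 870.5 to 1224 in D2 WT, 537 to 1208 in 87 CMD and 1146 to 1649 in 87 WT, with none of the 14 at 0, and its part in the matrix values was not tested.

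In the basement membrane list, which holds the partners of laminin, 5 of 18 genes had a higher effect in D2, where 3.02% of all genes did. They were the collagen IV chains Col4a1, Col4a2 and Col4a5, the linker nidogen Nid2 and the laminin receptor subunit Itga7. Col4a5 had 5.48, 10.4 and 8.699 CPM in D2 CMD, against 3.29, 2.896 and 3.35 in D2 WT. It had 1.47, 4.72 and 3.55 CPM in 87 CMD, against 4.34, 5.05 and 5.65 in 87 WT. The D2 groups were separated and the 87 groups overlapped (1.99 ± 0.55, adjusted p = 0.031), and the call was lost without any 1 library other than 17, 18 or 22 (adjusted p = 0.052 to 0.073). The count for the list was 2 without library 16, 0 without library 13 or 20, 1 without library 21, 23 or 24, 2 without library 15 or 19 and 8 without library 18. None of 13 genes of the dystrophin-glycoprotein complex, which ties the fibre to laminin, passed by edgeR, against 1 at an unadjusted p under 0.05 and 1 by DESeq2. In the TGF-beta list of 19 genes, 3 had a higher effect in D2 (Tgfb3, Ltbp3 and the activin antagonist Fst) and 1 a lower effect, and none of the 19 passed without library 16. Of all genes, 3.02% had a higher and 4.88% a lower effect. The count of 3 higher was also 0 without library 13, 14, 21, 23 or 24 and 1 without library 15, 19 or 20. Gdf11, a TGF-beta family ligand named as the most positive difference, had 22.9, 116 and 64.5 CPM in D2 CMD, against 11.3, 9.89 and 4.58 in D2 WT. It had 0.891, 15.9 and 17.7 CPM in 87 CMD, against 37.7, 22.7 and 17.02 in 87 WT. The D2 groups did not overlap and library 16 was the low 87 CMD sample (4.14 ± 1.11, adjusted p = 0.028). Its call was lost without libraries 13, 20, 21, 23 or 24 (adjusted p = 0.050 to 0.080). Spon2, a secreted matrix protein, rose in D2 and fell in 87: it had 6.105, 7.87 and 5.74 CPM in D2 CMD, against 4.205, 2.53 and 2.39 in D2 WT, and 0.734, 0.618 and 1.17 CPM in 87 CMD, against 3.76, 4.27 and 2.96 in 87 WT. The groups did not overlap in either strain (3.22 ± 0.54, adjusted p = 0.0012), and the call held under all 22 alternatives, some of which the naming rule required. Chst12, a chondroitin sulfotransferase (1.75), Phc1, a Polycomb protein (1.46), and Bak1, a pore-forming apoptosis protein (0.96), shared that pattern.

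Several inflammatory genes had a higher effect in D2 than in 87. Of 13 complement genes, 7 rose in D2 CMD (11.2% of all genes rose) and none was called in 87 CMD (11.5% rose and 9.38% fell). The D2 count was 2 without library 20 and 3 without library 21 or 24. With sex from Y-linked reads 3 rose in D2 CMD and 3 fell in 87 CMD. The effect differed for C3, C3ar1 and C5ar1, all higher in D2, where 3.02% of all genes were. C3, the central complement protein, had 668, 436 and 444 CPM in D2 CMD, against 167, 80.4 and 124 in D2 WT. It had 42.2, 34.97 and 89.5 CPM in 87 CMD, against 150.2, 81.4 and 107 in 87 WT. D2 CMD was the high group, without overlap, while the 87 groups overlapped. The difference of 3.08 ± 0.65 (adjusted p = 0.0066) held under all 22 alternatives, some of which the naming rule required. The count of complement genes with a different effect was 1 in 9 of the single-library fits (13, 15, 16, 17, 19, 20, 21, 22 and 24), 5 without library 23 and 9 without library 18. Of 18 macrophage markers, 11 rose in D2 CMD (6 without library 20) and 4 in 87 CMD (2 without library 15), and the effect differed for Adgre1 and Cd74. Adgre1, which encodes the macrophage marker F4/80, had 53.8, 3.88 and 44.4 CPM in D2 CMD, against 3.804, 2.58 and 2.62 in D2 WT. It had 0.865, 2.95 and 3.61 CPM in 87 CMD, against 5.15, 2.48 and 3.15 in 87 WT. Library 23 lay at the WT level, whereas libraries 22 and 24 were high, and the difference was 4.03 ± 0.94 (adjusted p = 0.012) with both strains complete and 4.14 (adjusted p = 0.0018) without libraries 16 and 23. With the 12 libraries fitted alone it was 3.98 and did not pass (adjusted p = 0.071). Rac2, a small GTPase of blood cells, had 24.999, 2.87 and 24.2 CPM in D2 CMD, against 1.98, 0.989 and 1.498 in D2 WT. It had 0.393, 2.05 and 3.34 CPM in 87 CMD, against 2.86, 1.35 and 2.25 in 87 WT. Library 23 was again close to WT (3.69 ± 0.96, adjusted p = 0.024), and the call was lost without libraries 13, 20, 21 or 24 (adjusted p = 0.060 to 0.063). Fyb, an adaptor of T cells and myeloid cells, had 14.7, 8.35 and 19.9 CPM in D2 CMD, against 1.07, 0.627 and 0.853 in D2 WT. It had 0.996, 1.798 and 2.71 CPM in 87 CMD, against 1.05, 0.432 and 0.875 in 87 WT (2.85 ± 0.7, adjusted p = 0.017). Its call was lost without library 13 (0.055) or 24 (0.052).

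The macrophage sum was 254 to 641 CPM in D2 CMD, 122 to 183 in D2 WT, 161 to 349 in 87 CMD and 187 to 292 in 87 WT, and no marker was at 0 in a whole group. The count of macrophage markers with a different effect was 1 without library 13, 14, 15, 17, 19, 20, 21, 22 or 24, 5 without library 23 and 6 without library 18. The 11 lymphocyte markers summed to 88.6, 5.83 and 69.1 CPM in D2 CMD, 3.06 to 4.27 in D2 WT, 2.97 to 9.54 in 87 CMD and 4.08 to 14.2 in 87 WT. Of 8 tested, Cd4 and Jchain had a higher effect in D2 (3.02% of all genes did), with a count of 1 without library 13, 15, 16, 19, 20, 21, 22 or 24 and 4 without library 18 or 23. Jchain, the joining chain of secreted antibodies, made up most of this, with 71.1, 0.478 and 55.2 CPM in D2 CMD, against 0.2002, 0.121 and 0.146 in D2 WT; it was singled out after its values were seen. Libraries 22 and 24, the 2 high ones, are also those with Y-linked reads, so in D2 CMD a sex difference and a difference between animals cannot be told apart. Of 18 interferon response genes, Isg15 had a higher effect in D2 (2.09, adjusted p = 0.019), and it lost its call without library 13, 21 or 24.

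Few nerve and junction genes had a different effect. Of 18 denervation and neuromuscular junction genes, 1 had a higher effect in D2 (2 without library 17 or 22), where 3.02% of all genes did. In D2 CMD 11 of the 18 rose and 1 fell, and in 87 CMD 8 rose and 2 fell. Of all genes, 11.2% rose and 9.03% fell in D2, and 11.5% rose and 9.38% fell in 87. Hcn4, a pacemaker channel, had 3.84, 3.86 and 4.39 CPM in D2 CMD, against 3.89, 3.35 and 2.39 in D2 WT. It had 0.498, 1.24 and 0.841 CPM in 87 CMD, against 4.79, 7.89 and 3.69 in 87 WT. It fell in 87 (−2.67, adjusted p = 0.00045) with no change past the threshold in D2 (2.99 ± 0.58, adjusted p = 0.0031). Of 10 Schwann cell markers, 5 rose in D2 CMD (11.2% of all genes rose) and none in 87 CMD, all 10 were higher in D2 CMD than in 87 CMD (17.3% of all genes were), and Cnp, an enzyme of myelin, had a different effect (1.36 ± 0.35, adjusted p = 0.022). Their sum was 95.7, 461 and 274 CPM in D2 CMD, 87.5 to 116 in D2 WT, 49.0 to 91.1 in 87 CMD and 61.5 to 81.6 in 87 WT, so library 23 was the highest. The count of 5 was 1 without library 20, 21 or 23, 2 without library 24, 3 without library 19 and 9 without library 22, and without libraries 16 and 23 it was 2, with 5 of the 10 higher in D2 CMD than in 87 CMD. The count with a different effect was 2 without library 17, 4 without library 22 and 0 without library 20, 21 or 23. Efs, an adaptor of the Cas family (2.52 ± 0.54, adjusted p = 0.0069), and Pcdhgc4, a clustered protocadherin (2.84, adjusted p = 0.015), were also among the 10 most positive. Pcdhgc4 shares exons with its gene cluster, and with unique exon reads its difference was 0.99 (adjusted p = 0.57), so its value is uncertain.

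The differences in effect called for atrophy genes rested on library 16, and those of stress genes were smaller without it. Of 20 genes of the atrophy and glucocorticoid list, none rose in D2 CMD (11.2% of all genes rose) and 11 rose in 87 CMD (11.5% rose). The median difference was −1.44 with library 16 and −0.19 without it. The count of 11 was 2 without library 16 and 5 without library 14 or 15. Fbxo32, Mt1 and Pdk4 passed with it, all lower in D2 (4.88% of all genes were). None passed without it, nor without library 14, 20, 21, 22, 23 or 24. The count was 1 without library 13 or 15, 2 without library 19, 8 without library 17 and 11 without library 18. Mt1, a metallothionein, had 18.4, 29.8 and 19.01 CPM in D2 CMD, against 7.85, 5.57 and 8.14 in D2 WT. It had 1179.7, 20.1 and 27.3 CPM in 87 CMD, against 6.34, 4.62 and 4.19 in 87 WT. Libraries 17 and 18 were within the range of D2 CMD, and the difference of −4.7 ± 1.38 (adjusted p = 0.041) was −0.62 (adjusted p = 0.65) without library 16. Its call was lost without any other library except 17 and 18 (adjusted p = 0.059 to 0.097). Trim63, the ubiquitin ligase MuRF1 of muscle atrophy, had 216, 239.8 and 249.9 CPM in D2 CMD, against 154, 318 and 179 in D2 WT. It had 3815, 215 and 289.8 CPM in 87 CMD, against 202, 174 and 192 in 87 WT. Its difference missed the threshold (−2.81 ± 0.95, adjusted p = 0.073) and passed without library 17 (0.011) or 18 (0.018). Retreg1, a receptor for autophagy of the endoplasmic reticulum, chosen after its values were seen, showed the same single library, with 2865, 215 and 239 CPM in 87 CMD, against 89.3, 102 and 98.5 in 87 WT. Atf3, a stress-induced transcription factor (−4.0) and the sole member called of 16 immediate early and heat shock genes, lost its call without library 16 (−2.54, adjusted p = 0.053). It had 176, 34.7 and 20.9 CPM in 87 CMD, against 2.53, 2.89 and 2.96 in 87 WT. In D2 it had 9.59, 22.7 and 26.7 CPM in CMD, against 11.03, 9.07 and 13.98 in WT. Its rise in 87 still passed without library 16 (3.30, edgeR adjusted p = 0.0014). Of the 16 genes, 11 rose in 87 CMD (11.5% of all genes did), and 6 did without library 16. That list's count of different effects was 4 without library 17, 6 without library 18 and 2 without library 19. Gabarapl1, an autophagosome protein (−2.87) and the sole member called of 15 autophagy and lysosome genes, kept its call without it at −0.84 (adjusted p = 0.049) but lost it without libraries 13, 14, 15, 21, 22, 23 or 24.

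**Figure D4:**
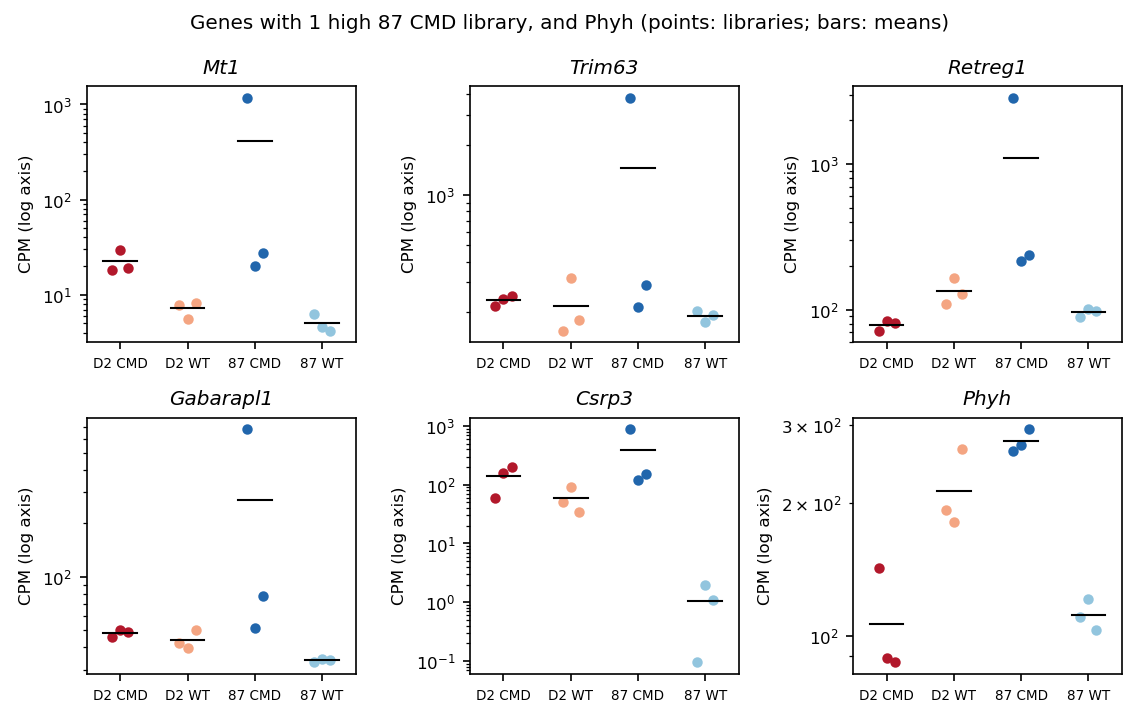
Each panel gives the CPM (log axis) of a gene per library, with group means as bars, in D2 CMD, D2 WT, 87 CMD and 87 WT. In Mt1, Trim63, Retreg1, Gabarapl1 and Csrp3, library 16 is the single high point of 87 CMD, while in Phyh the 3 libraries of 87 CMD lie together at 262 to 294 CPM.

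Among muscle repair genes, differences in effect were called for satellite cell markers and not for regeneration and fusion genes. None of 17 regeneration and fusion genes passed by edgeR, against 1 at an unadjusted p under 0.05 and 0 by DESeq2. In D2 CMD 8 of the 17 rose (5 without library 23) and 1 fell, and in 87 CMD 8 rose and 3 fell. Of all genes, 11.2% rose and 9.03% fell in D2, and 11.5% rose and 9.38% fell in 87. Of 14 p53 and senescence genes, Mdm2, the ligase that p53 induces, passed (0.64 ± 0.19, adjusted p = 0.046), and it lost the call without any 1 library other than 22. Of 6 satellite cell markers, Chodl and Vcam1 had a higher effect in D2 (3.02% of all genes did), and 1 of them lost the call without library 13 or 20. Vcam1, an adhesion molecule that quiescent satellite cells and activated endothelium carry, had 7.19, 6.33 and 7.13 CPM in D2 CMD, against 3.43, 2.63 and 2.601 in D2 WT. It had 1.704, 3.88 and 3.43 CPM in 87 CMD, against 4.598, 3.86 and 6.35 in 87 WT (1.97 ± 0.37, adjusted p = 0.0026). Of 10 endothelial markers 1 passed, Vwf (1.71 ± 0.43, adjusted p = 0.021), which lost the call without libraries 15, 20, 21 or 24. None passed by edgeR among the tested genes of the lists for the integrated stress response, cell cycle, circadian clock, proteasome, calcium store, adipocytes, mural cells, neutrophils and mast cells, erythroid cells, and tendon and cartilage. At an unadjusted p under 0.05 these 10 lists held 0 (erythroid) to 4 genes each, and DESeq2 called 0 to 3 in each. In these lists a difference of the size simulated at 2-fold may have been missed, since 26% of such simulated differences were recovered, against 77% at 4-fold. The simulated fit held 109 calls, against 1169 in the real fit, so its cut on the unadjusted p was stricter. These shares therefore do not carry over exactly to the real fit. The simulated differences were placed only in genes with a mean of at least 2 CPM. The shares recovered do not carry over to genes below that level.

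**Figure D5:**
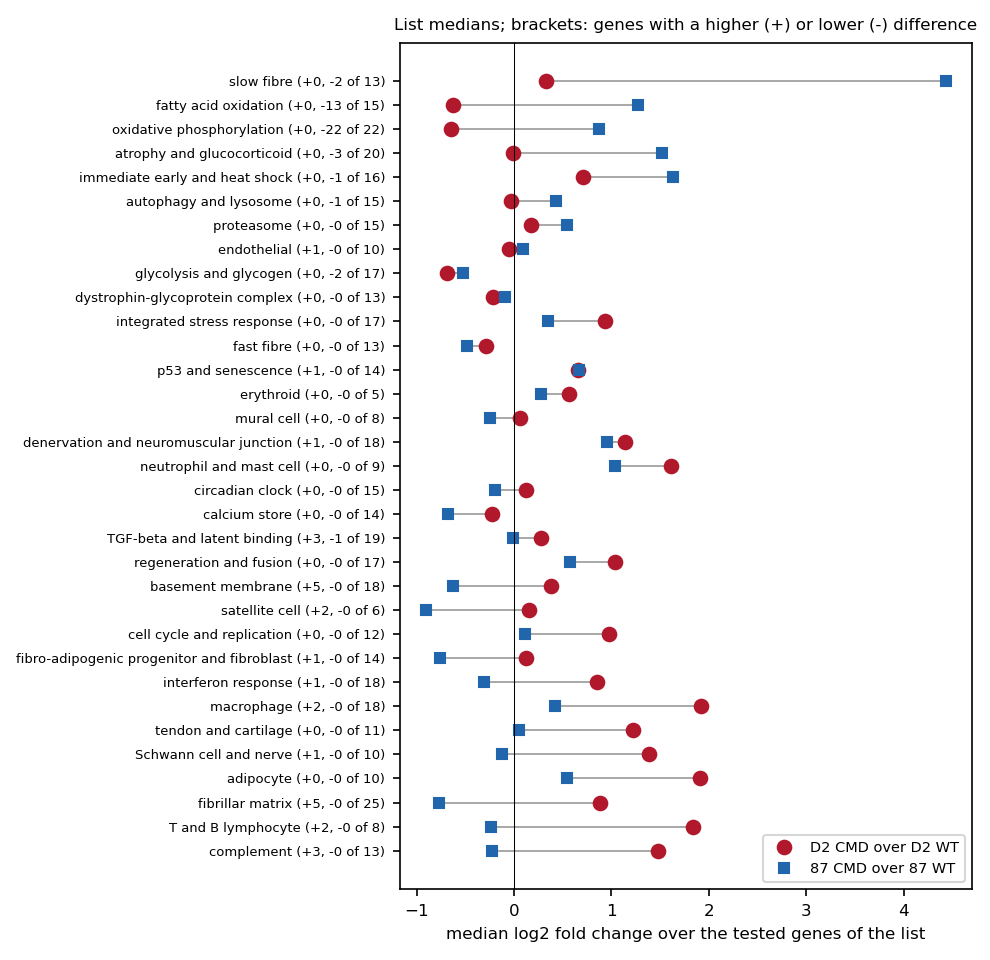
For each list the median log2 change over its tested genes is drawn for D2 CMD over D2 WT (circle) and 87 CMD over 87 WT (square), sorted by the median difference, with the number of genes whose effect was higher (+) or lower (−) in D2 in brackets. Oxidative phosphorylation (−0.64 in D2 and 0.87 in 87) and fatty acid oxidation (−0.63 and 1.28) have circles left and squares right of 0, while fibrillar matrix (0.89 and −0.77) has the opposite layout.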

How the data were processed

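mRNA of 24 quadriceps was sequenced as stranded paired reads, per the labels' protocols, and the build is GRCm39 (mm39), per the submitters' processing notes. Which aligner and which counter the authors ran is not given in the sources used here. Total exon reads per gene were used, deposited by the authors as raw counts, of which 97.7% to 98.2% per library were unique. RPKM and TPM columns were not used.

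The filter on low counts was filterByExpr over the 8 groups, with a count of 10 and a total of 15 as minimum, leaving 14789 of 25369 genes. The model was glmQLFit of edgeR 4.0.16 (limma 3.58.1, R 4.3.3) with TMM factors over all 24 libraries, so that the groups share 1 estimate of the spread. Contrasts were tested by glmQLFTest with Benjamini-Hochberg adjustment over all genes tested and a threshold of 0.05. No sex term was used because the sex label goes against Y-linked reads in 4 of the 12 libraries. P-values rest on the spread between libraries within all 8 groups, with 3 libraries a group, so libraries outside D2 and 87 enter that spread. With the 12 libraries of D2 and 87 fitted alone, 467 genes were called for the difference, in place of 1169. CPM are scaled by TMM-adjusted library size. With 3 libraries a group, replicate correlations of log2 CPM were 0.944 to 0.985.

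The test was checked on simulated counts of 14533 genes: of 100 differences of 2-fold 26% and of 100 of 4-fold 77% were recovered, and 6 of 109 calls were false. The differences were placed in D2 CMD, in genes with a mean of at least 2 CPM. Apart from them, each gene had the same mean CPM in all groups. With 109 calls, against 1169 in the real fit, the cut on the unadjusted p was stricter in the simulation.

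The comparison, the gene lists (33 lists, 471 genes) and the alternatives were chosen with earlier results of these data known, and 9 further lists were made after values were seen, so lists are described by counts and medians. Named genes averaged 1 or more in log2 CPM and had no Gm, Rik, H2, immunoglobulin or Y-linked symbol. They were the 10 most positive and 10 most negative differences called in the fit, with sex from Y-linked reads and without library 16, the 4 with the smallest p in each opposite direction, the leading called gene of each list, and Lama2, Mt1 and Trim63; genes that this rule takes but that are withheld are not reported here. Other genes are named in counts of 5 or fewer, or chosen after their values were seen. Alternatives were 2 codings of sex, RLE size factors, no filter, the 12 libraries alone, unique reads, DESeq2 1.42.0, each library left out, libraries 16 and 23 left out together, library 16 left out with sex from Y-linked reads, and a log2 change of at least 1. Promoters were matched by symbol, leaving out chromosome 18.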

Additional observations from a re-analysis of the deposited data

Results flagged for a closer look

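The effect of CMD differed between D2 and 87 past the threshold, by the test of the difference itself, for 40 of the 42 named genes. The naming rule took all but Lama2 and Trim63 from genes already called for this difference. For those 40 the outcome was therefore fixed in advance and is no separate evidence. All differences below are log2 effects in D2 minus log2 effects in 87.

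Higher in D2 were Gdf11 (4.14), Adgre1 (4.03), Rac2 (3.69), Spon2 (3.22), C3 (3.08), Hcn4 (2.99), Fyb (2.85), Pcdhgc4 (2.84) and Efs (2.52). Chst12 (1.75), Phc1 (1.46) and Bak1 (0.96) also rose in D2 and fell in 87. The leading genes of lists with a higher effect in D2 were Col4a5 (1.99), Vcam1 (1.97), Col6a3 (1.94), Vwf (1.71), Cnp (1.36), Smoc2 (1.35) and Mdm2 (0.64).

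Lower in D2 were Bdh1 (−9.08), Zdhhc23 (−6.54), Ldhb (−6.49), Esrrb (−5.15), Slc6a17 (−5.05), Plin5 (−4.94), Dusp18 (−4.88), Smtnl1 (−4.82), Acss1 (−4.75) and Idh2 (−4.33). Ckmt2 (−3.48), Phyh (−2.30), Cox5b (−1.59) and Bola3 (−1.13) fell in D2 and rose in 87. The leading genes of lists with a lower effect in D2 were Csrp3 (−7.29), Mt1 (−4.70), Atf3 (−4.00), Fabp3 (−3.91), Gabarapl1 (−2.87), Sdhb (−2.21) and Gys1 (−1.12). Without library 16 the difference was −5.82 for Csrp3 and −0.62 for Mt1, and neither then passed. Library 16 was also the only female of 87 CMD, so sex and a difference between animals cannot be told apart there. What sets it apart was not tested.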

How the results depend on the processing

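No paired analysis was possible because libraries of different groups share no number. Each count of calls below is set beside the value reported. For the difference in CMD effect (1169 genes, 447 higher and 722 lower in D2), the count was 2575 with sex as labelled (1345 higher, 1230 lower), 467 with the 12 libraries alone (76 higher, 391 lower), 1777 with DESeq2 (792 higher) and 823 at a log2 change of at least 1 (462 lower). Without library 16 and with sex from Y-linked reads, 285 were higher. Leaving out 1 library at a time gave 616 to 1885 (136 to 834 higher, 480 to 1051 lower), 1511 to 4268 in D2, 1832 to 3741 in 87, 3333 to 5634 between the CMD groups and 472 to 1550 between the WT groups. The 12 libraries alone gave 1504 in D2 (reported 2986), 1633 in 87 (3083) and 573 between the WT groups (1014), and without libraries 16 and 23 the WT groups differed for 1560. At a log2 change of at least 1 the counts were 1413 in D2, 1289 in 87, 2289 between the CMD groups and 626 between the WT groups. The cause of these shifts was not tested, other than fewer libraries in the fit where libraries were left out. Over the 42 named genes and their alternatives, 812 of 923 values kept their side of the threshold, 106 no longer passed, 5 newly passed and 0 changed sign. Part of the 812 was fixed in advance. For genes ranked by difference or taken for opposite directions, the naming rule required calls without library 16 and with sex from Y-linked reads. With the 12 libraries alone 14 of the 42 no longer passed (Gdf11, Adgre1, Rac2, Pcdhgc4, Efs, Gys1, Col6a3, Col4a5, Mdm2, Mt1, Gabarapl1, Smoc2, Cnp and Vwf, adjusted p 0.051 to 0.23). The sex-labelled fit gave the most calls, and sex from Y-linked reads gave 1136, of which 1047 were among the 1169. Depth was similar in all 12 libraries; 3 libraries a group limit what can be called.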
